A study of Arabidopsis with 12 samples.

Results

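The NAC family of transcription factors was followed across 4 groups of Arabidopsis seedlings. Members were the genes whose description in the deposited table names a NAC domain containing protein or a NAC (No Apical Meristem) protein, leaving out 13 listed loci, which gave 91 members among 37825 genes. The table's own domain annotation lists a NAM domain, the DNA-binding domain of the family, for 89 of the 91, and 14 further genes with that domain are worded differently and were not counted as members. Poly(A) RNA of whole seedlings was sequenced in 12 libraries, 3 for each combination of genotype (WT or mutant) and time (control or 3 days). The series text names mac3a3b, so the mutant libraries are taken as that line, which carries lesions in MAC3A and MAC3B, a pair of related splicing-associated ubiquitin ligases. All plants grew on MS medium with sucrose, and some material was exposed to 37 °C. The labels give no plant age, heat duration or alleles. The titles call the starting samples controls while the series text has 0 hours after heat instead, and no unheated sample at 3 days was analysed here, so heat, recovery and 3 days of growth cannot be told apart in the responses below.

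NAC proteins share an N-terminal DNA-binding domain and differ in their C-terminal regulatory part. In Arabidopsis they switch on vessel and secondary wall formation, set the boundaries between organs, drive root cap maturation, and control leaf senescence and programmed cell death. Others respond to drought, abscisic acid (ABA) and wounding, and a subset is anchored to membranes by a C-terminal segment and released under stress. Several boundary and root members are targets of the microRNA miR164.

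Levels are in TPM (transcript abundance scaled to a fixed total per library), which is length-corrected and is a share of each library. Differences are on the log2(TPM + 1) scale, which understates the change of low genes, with their standard error (SE) from limma. Where 2-fold is written below, it means a difference of 1 on this scale, so low genes can change by more in TPM without reaching it. A gene was called when its limma p, adjusted by Benjamini-Hochberg over 22462 genes, was under 0.05. Replicates correlated at r of 0.982 to 0.989. In WT, MAC3A averaged 34.7 TPM at control and 60.4 at 3 days and MAC3B 72.6 and 133, and in the mutant MAC3A averaged 9.74 and 6.12 and MAC3B 10.4 and 9.44. The files hold no read counts, so the depth behind a value is unknown. No label ties the replicates to separate cultures, and a p-value then reflects only how far these samples vary, possibly for technical reasons. In whole seedlings, fewer cells of a type and less RNA per cell cannot be told apart.

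The summed level of the 91 members was higher at 3 days in both genotypes and highest in the mutant. In WT it was 459 ± 19.2 TPM (SD, n = 3) at control and 910.2 ± 41.3 at 3 days, and in the mutant 558 ± 32.3 and 1635 ± 91.8. The ranges of the 4 groups did not overlap. Median-of-ratios scaling would divide these sums by 0.930 to 0.940 in WT control and 1.27 to 1.29 in WT 3 days. In the mutant the factors were 0.977 to 1.01 at control and 0.845 to 0.900 at 3 days. The WT rise would then be smaller and the difference between genotypes at 3 days larger, so their size depends on scaling. Of the 725 TPM by which mutant 3 days exceeded WT 3 days, NAC087, NAC078, NAC003, NAC047 and VNI2 made up 64.15%. By mean TPM, 41 members were higher and 40 lower in the mutant at that time, untested members near 0 TPM included. The share of all genes by this measure was not computed. By limma calls, 24.1% of all genes tested were higher and 58.7% lower. The 13 loci left out summed in WT to 66.0 to 67.3 TPM at control and 326 to 340.4 at 3 days, and in the mutant to 118 to 129 and 418 to 440.5 TPM.

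**Figure D1:**
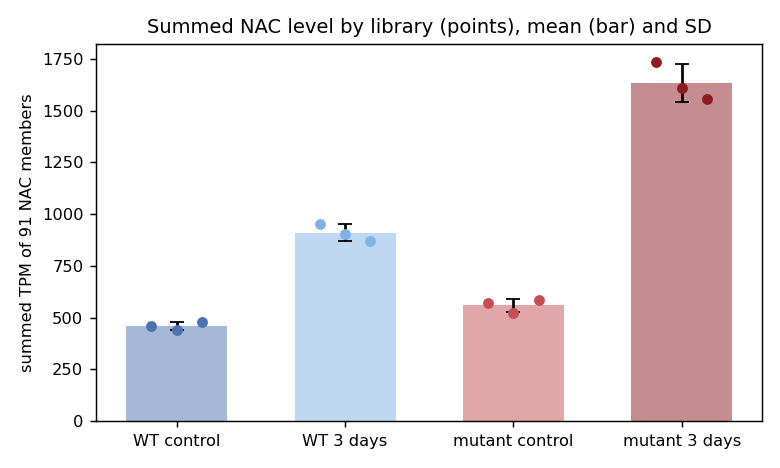
Summed TPM of the 91 NAC members (y axis) in the 4 groups (x axis). Points are libraries, bars are means and whiskers are SD (n = 3). The mutant 3 days libraries lie between 1558 and 1736 TPM, above the WT 3 days libraries at 872 to 954 TPM.

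The 57 members that reached 1 TPM in 3 or more libraries were tested. The other 34 never exceeded 1.62 TPM, and 9 of them were listed at 0 in every library. A member that passed only through the group where it is high had to differ, so counts over the 57 describe them and do not stand for the family. This holds for 8 members that passed only with the group of their highest mean: NAC019, NAC061 and NAC071 (mutant 3 days), CUC1 (WT 3 days), NAC028, CUC3 and NAC099 (mutant control) and SMB (WT control). NAC019 and NAC061 reached at most 0.80 and 0.47 TPM in their other 9 libraries. The highest mean fell in mutant 3 days for 26 of the 57, in mutant control for 11, in WT 3 days for 11 and in WT control for 9. The shares of all genes by this measure were not computed.

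**Figure D2:**
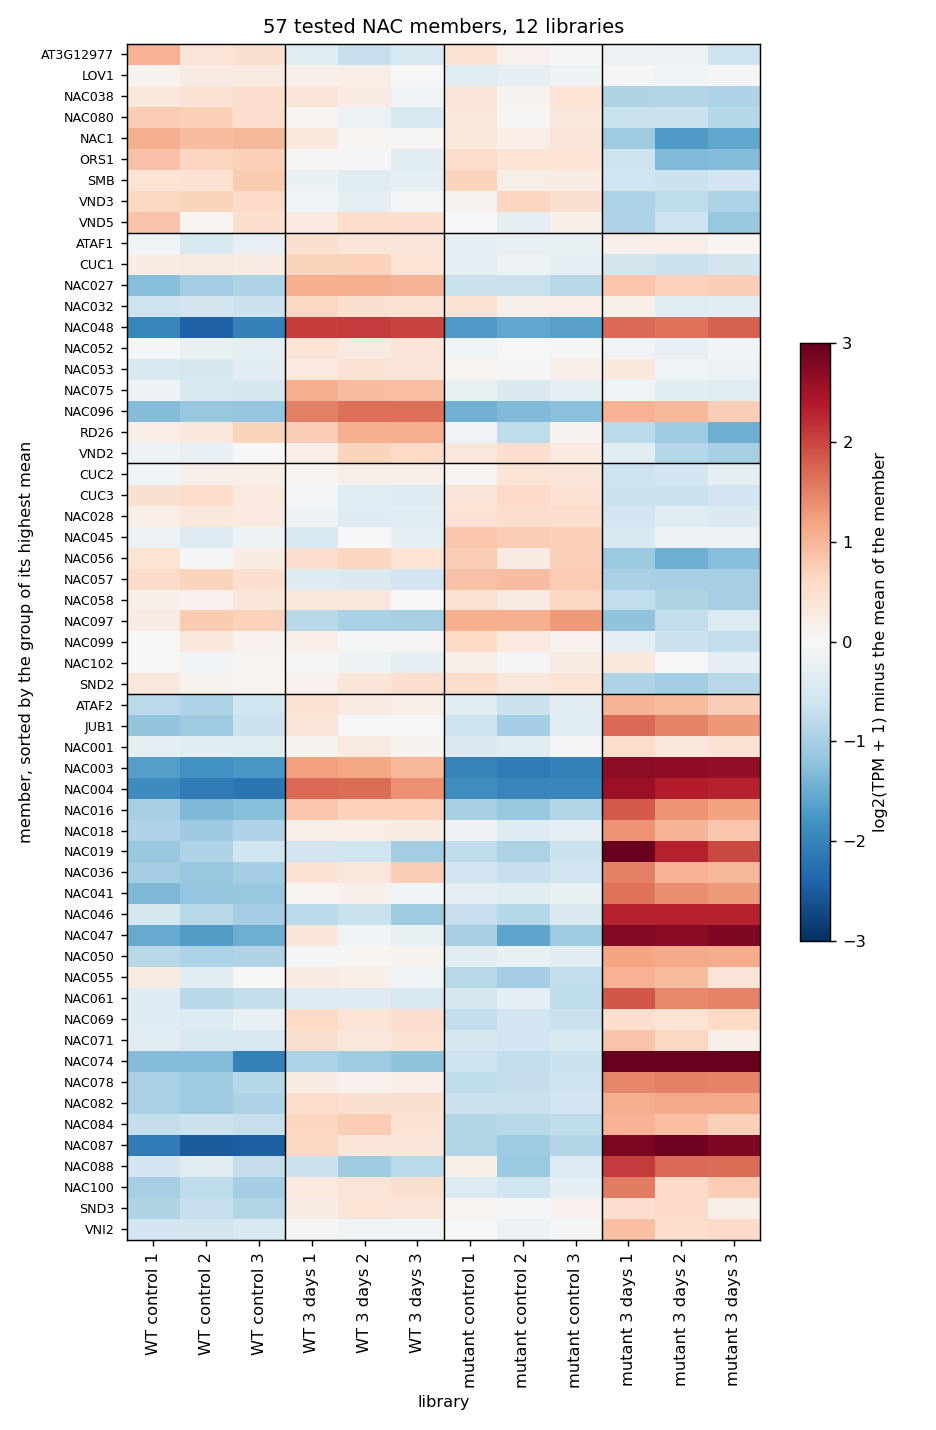
Level of the 57 tested members (rows) in 12 libraries (columns), as log2(TPM + 1) minus the mean of the member, clipped at 3 in each direction. Rows are sorted by the group of the highest mean, and the 26 members highest in mutant 3 days are in the lowest block.

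In control seedlings NAC087 and NAC045 were the members called higher in the mutant by at least 1 on the log2(TPM + 1) scale, beside 2.56% of all genes tested. None was called lower by that much, beside 3.08%. NAC045 was at 1.00 and fell below 1 with median-of-ratios scaling (0.96) and quantile normalization (0.92). Its value is also uncertain, because its span overlaps GSTF11, which averaged 16.8 TPM in WT control and 29.6 TPM in mutant control. In TPM some low members changed by more than 2-fold without reaching 1 on the log2 scale. Examples are NAC074 (0.92 in WT, 2.44 in the mutant) and NAC055 (1.55 and 0.41). Among the 57 tested members 19 were higher in the mutant, beside 30.3% of all genes tested, and 8 were lower, beside 19.2%. The median difference was 0.19 over the tested members and 0.060 over all genes. NAC087 had 5.16, 3.56 and 3.70 TPM in WT and 13.2, 11.6 and 13.3 TPM in the mutant, a difference of 1.42 ± 0.113 (adjusted p = 2.14e-06). The genotypes did not overlap. NAC041 (0.94 ± 0.0921), SND3 (0.89 ± 0.115) and NAC032 (0.87 ± 0.134) were also higher, and NAC055 (-0.84 ± 0.198), NAC1 (-0.70 ± 0.142) and RD26 (-0.65 ± 0.23) were lower. Several small differences at control depended on 1 library. RD26 lost its call without WT control replicate 2 (adjusted p = 0.0594), WT control replicate 3 (0.128) or mutant control replicate 2 (0.138, with the difference at -0.40). ATAF2, VND2, NAC057, NAC080 and NAC097 each lost theirs without WT control replicate 1, at adjusted p of 0.0732, 0.069, 0.0739, 0.0817 and 0.125, and without other control libraries. Median-of-ratios scaling also ended the calls of ATAF2 (0.27, adjusted p = 0.0557), NAC057 (0.22) and NAC097 (0.49).

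In WT, NAC048, NAC004, NAC003, NAC087 and NAC096 had the largest rises over 3 days. The count over the tested members was 32 higher, beside 54.9% of all genes, and 10 lower, beside 26.4%, and the median change was 0.48 over the members and 0.39 over all genes. With median-of-ratios scaling, which moves the all-gene median from 0.39 to 0.010, the split was 25 higher and 16 lower, and with quantile normalization 24 and 20. NAC048 had 1.19, 0.60 and 1.09 TPM at control and 35.1, 35.5 and 33.8 TPM at 3 days, a rise of 4.20 ± 0.106 (adjusted p = 1.33e-11). NAC004, NAC003, NAC087 and NAC096, a factor of the ABA and dehydration response, rose by 3.64, 2.88, 2.82 and 2.81. By at least 2-fold, 20 members were higher, beside 26.2% of all genes, and 3 lower, beside 11.5%. Among the members called in WT, CUC1 (higher) passed the filter only with WT 3 days and SMB (lower) only with WT control. The filter favoured these directions.

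In the mutant, more of the tested members were called over 3 days than in WT, which can rest partly on the filter. NAC019, NAC061 and NAC071 passed it only with mutant 3 days, which favoured a rise. NAC028, CUC3 and NAC099 passed it only with mutant control, which favoured a fall. These members are in the counts below, and NAC019, NAC061, NAC071 and CUC3 also reached 2-fold. The count was 31 higher, beside 39.4% of all genes, and 22 lower, beside 46.5%, and the median change was 0.39 over the members and -0.13 over all genes. By at least 2-fold, 26 were higher, beside 22.1% of all genes, and 12 lower, beside 29.8%. NAC003 had 3.81, 3.43 and 3.69 TPM at control and 122, 120 and 118 TPM at 3 days, a rise of 4.71 ± 0.0661. NAC004, NAC047, NAC074 and NAC087 followed with rises of 4.34, 3.97, 3.96 and 3.79. The largest decreases were in NAC097 (-1.93 ± 0.191), NAC056 (-1.86 ± 0.156) and NAC057 (-1.84 ± 0.0938).

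At 3 days NAC074, NAC046, NAC019, NAC047, NAC088, NAC087 and NAC061 were more than 2 log2 units higher in the mutant than in WT, and RD26 more than 2 lower. NAC019 and NAC061 are among the members that passed the filter through mutant 3 days alone, and the value of NAC088 is uncertain because its span overlaps SIP1;2. The count was 23 higher, beside 24.1% of all genes, and 25 lower, beside 58.7%, and the median difference was 0.0024 over the members and -0.51 over all genes. With median-of-ratios scaling, which moves the all-gene median from -0.51 to -0.071, 30 were higher and 16 lower. By at least 2-fold, 12 were higher, beside 8.1% of all genes, and 10 lower, beside 32.7%. CUC1, among the 10, passed the filter only with WT 3 days, which favoured this direction. The comparisons share libraries with each other, so their values are given side by side and not as separate lines of evidence.

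The change over 3 days itself was called different between genotypes for 43 of the 57, close to the share of all genes that the next percentages give. It was higher in the mutant for 18, beside 20.6% of all genes, and lower for 25, beside 56.3%, and with median-of-ratios scaling, which moves the all-gene median from -0.55 to -0.031, the split was 28 higher and 13 lower. By at least 2-fold it was higher for 10, beside 8.12%, and lower for 8, beside 33.9%. By the calls in each genotype, 25 members were higher at 3 days in both, beside 33.8% of all genes, and 10 were lower in both, beside 23.1%. In the mutant but not in WT, 6 passed as higher, beside 4.05%, and 8 as lower, beside 10.4%. In WT but not in the mutant, 3 passed as higher, beside 8.12%. Calls of a rise in WT and a fall in the mutant were made for 4, beside 13%, and NAC102 passed in neither, beside 4.24%. NAC019 and NAC061 passed the filter through mutant 3 days alone, and they are among the 6 and among the members with a higher response in the mutant. Other members that passed only with the group of their highest mean are NAC071 among the 25, NAC028, CUC3 and SMB among those lower in both, NAC099 among the 8 and CUC1 among the 4.

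**Figure D3:**
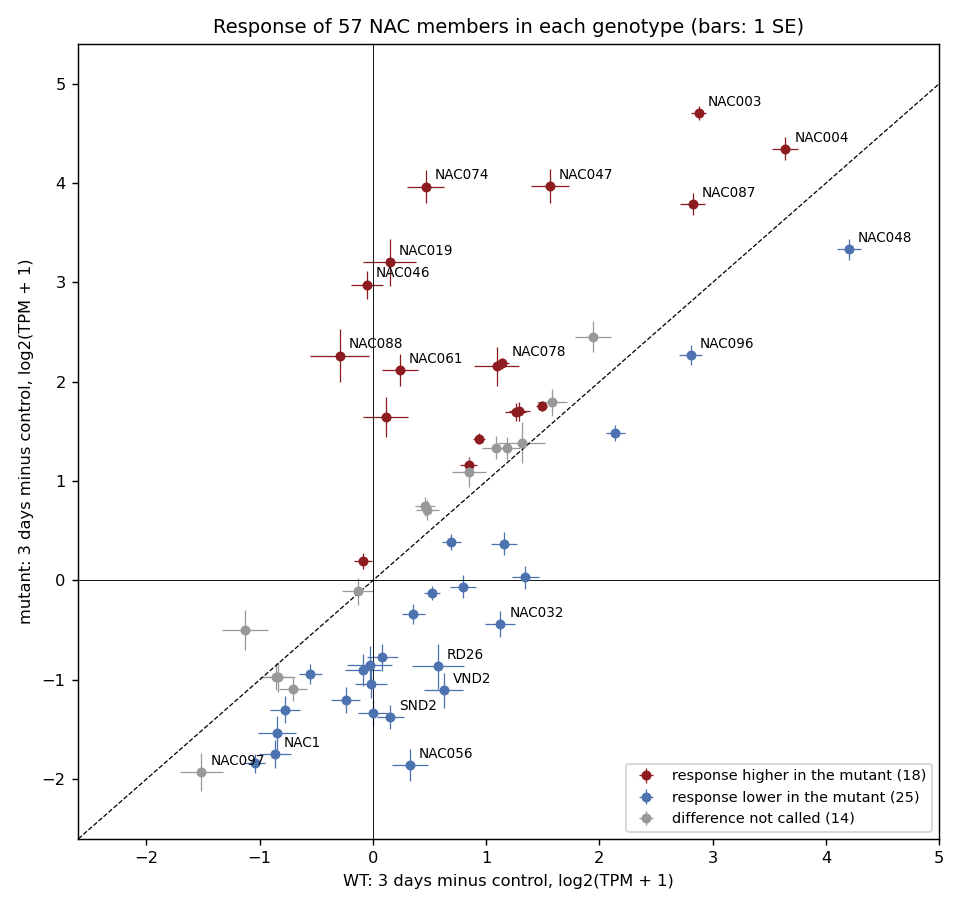
Change from control to 3 days in WT (x axis) and in the mutant (y axis), both as log2(TPM + 1) differences, for the 57 tested members. Bars are 1 SE, colour gives the limma call of the difference between the responses (18 higher, 25 lower, 14 not called), and the dashed line marks equal responses. NAC074, NAC046 and NAC019 lie at 0.47, -0.05 and 0.15 on the WT axis and at 3.96, 2.98 and 3.20 on the mutant axis. NAC019 passed the filter through mutant 3 days alone, which fixed the direction of its change in the mutant.

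Of the senescence and cell death members, 8 were tested, and at 3 days 7 were higher in the mutant, beside 24.1% of all genes, and 1 was lower, beside 58.7%. NAC061, 1 of the 7, passed the filter through mutant 3 days alone. The role groups and gene lists were chosen with earlier results of these data known, so this count is a description. ATAF1 (lower, -0.28) and NAC016 (higher, 0.72) also act in senescence but are counted in other groups. NAC074, also known as KIRA1 and a driver of stigma cell death, had 1.81, 1.60 and 1.36 TPM in WT 3 days and 51.1, 53.0 and 53.9 TPM in mutant 3 days. Its control levels were 1.21, 1.21 and 0.34 TPM in WT and 2.53, 2.26 and 2.52 TPM in the mutant. Mutant 3 days stood far above the other 9 libraries, and the difference from WT at 3 days was 4.38 ± 0.165 (adjusted p = 3.55e-10). Its small WT rise of 0.47 lost its call without WT 3 days replicate 1 (adjusted p = 0.0686), likewise after median-of-ratios scaling (0.21, adjusted p = 0.269), and turned to -0.055 with quantile normalization.

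NAC046, which promotes chlorophyll breakdown and acts in root cap cell death, had 5.47, 6.10 and 4.45 TPM in WT 3 days and 55.1, 55.6 and 55.1 TPM in mutant 3 days. Its control values were 4.60 to 6.86 TPM in WT and 5.23 to 7.38 TPM in the mutant, which overlapped. It rose by 2.98 ± 0.14 in the mutant, while the WT change was -0.05 ± 0.14 and did not pass, though it passed as lower with median-of-ratios scaling (-0.43) and quantile normalization (-0.42), and the responses differed by 3.03 ± 0.199 (adjusted p = 7.11e-08). NAC047, linked to ethylene-driven leaf movement, lies beside NAC046 in the genome. It had 15.2, 10.7 and 9.70 TPM in WT 3 days and 82.8, 80.9 and 85.8 TPM in mutant 3 days, a difference of 2.73 ± 0.167.

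NAC087, which works with NAC046 in root cap cell death, was higher in the mutant at both times. It reached 39.7, 32.9 and 32.9 TPM in WT 3 days and 185, 198 and 182 TPM in mutant 3 days, a difference of 2.39 ± 0.113, and was the most abundant member in the latter. The groups did not overlap. JUB1, which delays senescence, had 7.36, 5.33 and 5.36 TPM in WT 3 days and 19.5, 16.9 and 14.6 TPM in mutant 3 days (1.36 ± 0.196). NAC036 was higher too (0.68 ± 0.132). NAC061 had 0.28 to 0.38 TPM in WT 3 days and 3.90 to 5.49 TPM in mutant 3 days, a difference that the filter fixed.

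ORS1, a promoter of senescence, was the member of the group that was lower. It had 5.36, 4.99 and 3.99 TPM in WT 3 days and 3.03, 1.46 and 1.53 TPM in mutant 3 days, a difference of -0.97 ± 0.171 (adjusted p = 0.000222). The libraries did not overlap, but the call ended with quantile normalization (-0.0079, adjusted p = 0.966). Senescence genes outside the family, 8 of them tested, were higher in the mutant at 3 days for 6, beside 24.1% of all genes, and lower for 1, beside 58.7%, and their summed level was 275 to 307 TPM in WT 3 days and 591 to 619 TPM in mutant 3 days. Whether they move with these members for a shared reason was not tested.

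Among the membrane-tethered members, 5 were tested, and at 3 days 3 were higher in the mutant, beside 24.1% of all genes, and 1 lower, beside 58.7%, against 4 higher and 0 lower with either median-of-ratios scaling or quantile normalization. NAC078, which with NAC053 activates proteasome genes under proteotoxic stress, had 70.9, 66.5 and 69.9 TPM in WT 3 days and 168, 175 and 174 TPM in mutant 3 days. The difference was 1.31 ± 0.0544 (adjusted p = 7.76e-10) with no overlap, and the rise over control was 1.14 in WT and 2.19 in the mutant. NAC053 rose by 0.80 ± 0.115 in WT, whereas its mutant change of -0.06 ± 0.115 did not pass, and the responses differed by -0.86 ± 0.163 (adjusted p = 0.000481), a call that ended with median-of-ratios scaling (-0.25, adjusted p = 0.131). Its lower level in the mutant at 3 days (-0.35) turned to 0.18 with median-of-ratios scaling and to 0.15 with quantile normalization, and lost its call without mutant 3 days replicate 2 (adjusted p = 0.0564) or 3 (0.0646). NAC016, a senescence promoter, had 6.20 to 6.98 TPM in WT 3 days and 9.24 to 14.9 TPM in mutant 3 days (0.72 ± 0.157). NAC001 (0.27) lost its call with each of 4 libraries left out in turn, with adjusted p from 0.0513 without mutant 3 days replicate 3 to 0.0939 without mutant 3 days replicate 1. NAC069, also called NTM2, differed by 0.00 ± 0.0784, but passed as higher with median-of-ratios scaling (0.53) and quantile normalization (0.50). NAC060, an ABA and sugar regulator, stayed at or below 0.75 TPM and was not tested.

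The stress members related to ATAF1 and RD26 went in different directions. NAC019, which acts in drought, ABA and jasmonate responses, had 0.80, 0.77 and 0.30 TPM in WT 3 days and 19.9, 12.2 and 9.63 TPM in mutant 3 days, a difference of 3.15 ± 0.235. All other libraries were below 1 TPM, so it passed the filter through mutant 3 days alone, which fixed the direction, and its difference is a description. Its relative NAC055 had 2.03, 1.85 and 1.33 TPM and 4.24, 3.90 and 2.31 TPM in the same groups (0.69 ± 0.198).

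RD26, the third of these relatives, went the other way. It had 10.97, 13.87 and 13.95 TPM in WT 3 days and 3.01, 2.38 and 1.54 TPM in mutant 3 days, a difference of -2.09 ± 0.23 (adjusted p = 4.07e-06), and no libraries overlapped. Its WT rise of 0.57 lost the call without WT control replicate 1 (adjusted p = 0.118), WT control replicate 2 (0.0909) or WT 3 days replicate 2 or 3 (0.0941 and 0.0947), and under both scalings (0.16 and 0.21). The fall of 0.87 in the mutant kept its call without each library, but not with quantile normalization (-0.25, adjusted p = 0.304).

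NAC032 had 7.16, 7.54 and 6.96 TPM at control in WT and 18.3, 16.5 and 15.99 TPM at 3 days. In the mutant it had 15.96, 12.9 and 13.4 TPM at control and 13.3, 8.72 and 8.91 TPM at 3 days. Mutant control was already above WT control, and mutant 3 days was below WT 3 days (-0.69 ± 0.134), a call that ended with median-of-ratios scaling (-0.17, adjusted p = 0.23) and with quantile normalization (-0.057, adjusted p = 0.659). ATAF2, a wound and pathogen responsive member, rose in both genotypes and was higher in the mutant at 3 days (0.60 ± 0.116). ATAF1, an ABA and senescence regulator, was lower by 0.28 on the log2 scale, a difference that turned to 0.27 with median-of-ratios scaling and 0.0048 with quantile normalization. NAC102 had 42.3 to 54.0 TPM in WT 3 days and 43.5 to 65.7 TPM in mutant 3 days, and passed in no comparison. With median-of-ratios scaling NAC102 passed as higher in the mutant at 3 days (0.70, adjusted p = 0.00017) and as lower at 3 days in WT (-0.58), and with quantile normalization as lower at 3 days in WT (-0.54) and in the mutant (-0.38).

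**Figure D4:**
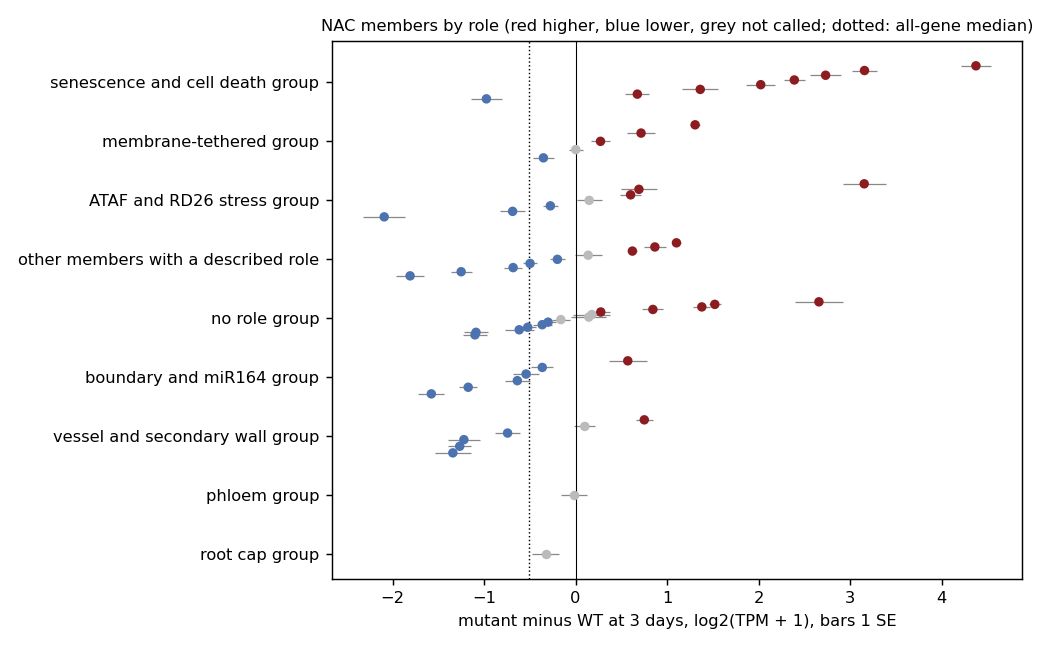
Mutant minus WT at 3 days, log2(TPM + 1) (x axis), for the tested members by role group (y axis). Each point is a member with 1 SE, red is called higher, blue called lower and grey not called, and the dotted line is the all-gene median of -0.51. In the senescence and cell death group 7 of 8 points lie above 0. The groups were chosen with earlier results of these data known.

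Of the vessel and secondary wall members, 6 were tested, and at 3 days 4 were lower in the mutant, beside 58.7% of all genes, and 1 higher, beside 24.1%, against 4 and 2 after median-of-ratios scaling and 2 lower and 2 higher with quantile normalization. VND2, VND3 and VND5 act in vessel differentiation and SND2 in secondary wall thickening. SND2 had 1.59, 2.03 and 2.33 TPM in WT 3 days and 0.24, 0.14 and 0.33 TPM in mutant 3 days (-1.27 ± 0.122, adjusted p = 1.28e-06). VND2 had 2.23, 3.42 and 3.22 TPM and then 1.21, 0.55 and 0.39 TPM in the same groups (-1.22 ± 0.173). Neither overlapped between genotypes, but the VND2 call ended with quantile normalization (-0.31, adjusted p = 0.128).

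VND5 (-1.34 ± 0.198) and VND3 (-0.74 ± 0.135) were lower as well, with at most 0.52 TPM in any mutant 3 days library, and the VND3 call ended with quantile normalization (-0.12, adjusted p = 0.497). VNI2, which represses the vessel regulator VND7, was the member that was higher, at 90.7, 79.7 and 80.2 TPM in WT 3 days and 166, 130 and 130.3 TPM in mutant 3 days (0.75 ± 0.0915). SND3 did not pass (0.10 ± 0.115), but passed as higher with median-of-ratios scaling (0.58) and quantile normalization (0.93). Marker genes of xylem and secondary walls moved in the same samples: all 10 tested of 12 were lower in the mutant at 3 days, beside 58.7% of all genes, and their summed level was 355 to 447 TPM in WT 3 days and 20.7 to 22.8 TPM in mutant 3 days. Their part in the NAC values was not tested.

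Of the boundary and miR164 members, 6 were tested, with 5 lower in the mutant at 3 days, beside 58.7% of all genes, and 1 higher, beside 24.1%, against 4 and 1 after median-of-ratios scaling and 2 lower and 2 higher with quantile normalization. CUC1, 1 of the 5 lower, passed the filter only with WT 3 days. NAC1, a lateral root factor, had 17.5, 15.6 and 16.1 TPM at control in WT and 9.84, 8.06 and 7.85 TPM at 3 days. In the mutant it had 10, 9.04 and 10.3 TPM at control and 3.12, 1.68 and 1.97 TPM at 3 days. It fell in both genotypes and was lower in the mutant at both times, by 1.58 ± 0.142 on the log2 scale at 3 days (adjusted p = 6.68e-07). The libraries of mutant 3 days lay below all others. Its larger fall in the mutant (-0.88) lost the call with median-of-ratios scaling (-0.35, adjusted p = 0.118) and turned to 0.21 with quantile normalization. NAC1 overlaps AT1G56000 over 148 bases, and that gene averaged 17.9 TPM in WT 3 days and 3.10 TPM in mutant 3 days, so the values of NAC1 are uncertain.

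CUC1, an organ boundary gene, had 1.62, 1.68 and 1.19 TPM in WT 3 days and 0.13, 0.06 and 0.12 TPM in mutant 3 days (-1.17 ± 0.101). It passed the filter only with WT 3 days, which favoured this direction, so the difference is a description. CUC2 (-0.64) turned to 0.24 and CUC3 (-0.36) to 0.0029 with quantile normalization, and CUC3 lost its call without WT 3 days replicate 1 (adjusted p = 0.091). NAC080 (-0.54) lost its call with median-of-ratios scaling (-0.11, adjusted p = 0.468) and turned to 0.45 with quantile normalization. NAC100 was higher by 0.57 ± 0.207, and lost its call without WT 3 days replicate 1 (adjusted p = 0.0668) or mutant 3 days replicate 1 (0.0562, with the difference at 0.27). Boundary and meristem genes outside the family, 3 of them tested, were all lower, beside 58.7% of all genes, with a summed level of 15.7 to 18.1 TPM in WT 3 days and 5.14 to 7.57 TPM in mutant 3 days, and their part was not tested.

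Root cap and phloem members were near the floor of these libraries. SMB, which matures the root cap, fell in both genotypes, from 1.09, 1.14 and 1.71 TPM to 0.37, 0.22 and 0.28 TPM in WT and from 1.51, 0.79 and 0.83 TPM to 0.04, 0 and 0.05 TPM in the mutant. SMB passed the filter only with WT control, which favoured a fall in WT, so that fall is a description. At 3 days the genotypes differed by -0.32 ± 0.147, which did not pass (adjusted p = 0.06). Its partners BRN1 and BRN2, and FEZ of the root cap stem cells, never exceeded 1.52, 1.10 and 0.32 TPM and were not tested. Root hair and endodermis genes, all 11 tested, summed to 87.9 to 111 TPM in WT control and 4.01 to 4.79 TPM in mutant 3 days, where 10 were called below WT 3 days, beside 58.7% of all genes, and their part was not tested. NAC045, a sieve element factor, had 2.85 to 3.24 TPM in mutant control and at most 1.40 TPM in every other library. It overlaps GSTF11, whose mean went from 29.6 TPM in mutant control to 0 in mutant 3 days. Without a stated strand setting the value of NAC045 is uncertain. Phloem marker genes, all 6 tested, summed to 74.1 to 77.8 TPM in WT 3 days and 177.5 to 186 TPM in mutant 3 days. Of these, 2 were higher in the mutant at 3 days, beside 24.1% of all genes, and 3 lower, beside 58.7%. Their part was not tested.

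Members with other described roles divided. NAC082, a factor of the ribosomal stress response, had 91.6, 87.8 and 87.4 TPM in WT 3 days and 134, 139.4 and 139.1 TPM in mutant 3 days (0.62 ± 0.0474). NAC050, which works with the histone demethylase JMJ14, had 24.2, 26.0 and 26.7 TPM and 57.3, 56.1 and 55.0 TPM in the same groups (1.10 ± 0.0515). No libraries overlapped in either.

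NAC052, the partner and genomic neighbour of NAC050, was lower in the mutant by 0.50 on the log2 scale, which turned to 0.036 with median-of-ratios scaling. NAC056, a seed coat factor, had 7.82, 8.52 and 7.09 TPM in WT 3 days and 1.83, 1.22 and 1.52 TPM in mutant 3 days (-1.81 ± 0.156, adjusted p = 4.72e-07), while its partner NAC018 was higher (0.87 ± 0.117). NAC075 rose in WT by 1.35 ± 0.116, to 7.01 to 8.02 TPM, and stayed at 2.33 to 2.89 TPM in mutant 3 days (-1.25 ± 0.116). NAC096 was lower by 0.68 on the log2 scale, which lost the call with median-of-ratios scaling (-0.17, adjusted p = 0.126) and turned to 0.031 with quantile normalization. NAC071, of wound tissue reunion, rose in both genotypes (0.85 and 1.09). It passed the filter only with mutant 3 days, which favoured a rise in the mutant, so that rise is a description. At 3 days NAC071 did not differ past the threshold between genotypes (0.14 ± 0.147), but passed as higher in the mutant with median-of-ratios scaling (0.43) and quantile normalization (1.17). Its WT rise lost the call with quantile normalization (0.14, adjusted p = 0.398). LOV1, a flowering regulator, was lower by 0.20, lost its call with each of 4 libraries left out in turn (adjusted p of 0.0677 to 0.128) and turned to 0.30 with median-of-ratios scaling and 0.56 with quantile normalization.

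Of the members in no role group, NAC003 was among the most raised. It had 44.0, 42.1 and 37.6 TPM in WT 3 days and 122, 120 and 118 TPM in mutant 3 days (1.52 ± 0.0661, adjusted p = 1.1e-09). NAC041 (1.38 ± 0.0921) and NAC004 (0.85 ± 0.116) were higher too, and NAC058 (-1.10 ± 0.132) and NAC038 (-1.09 ± 0.128) lower, although both lost the call with quantile normalization (-0.13 and -0.16). NAC048 was lower by 0.36 on the log2 scale, which turned to 0.18 with median-of-ratios scaling, and NAC027 by 0.30, which turned to 0.25 with it. NAC088 had 1.87 to 2.85 TPM in WT 3 days and 18.3 to 24.7 TPM in mutant 3 days (2.66 ± 0.264), but its span overlaps SIP1;2, which averaged 7.87 and 48.3 TPM in those groups, so its value is uncertain. In all, 12 of the 57 overlap a protein-coding gene, among them NAC078, ATAF1, ATAF2, NAC1, LOV1, JUB1, VND2 and NAC102, and where reads of the partner could be counted in them these values are uncertain.

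**Figure D5:**
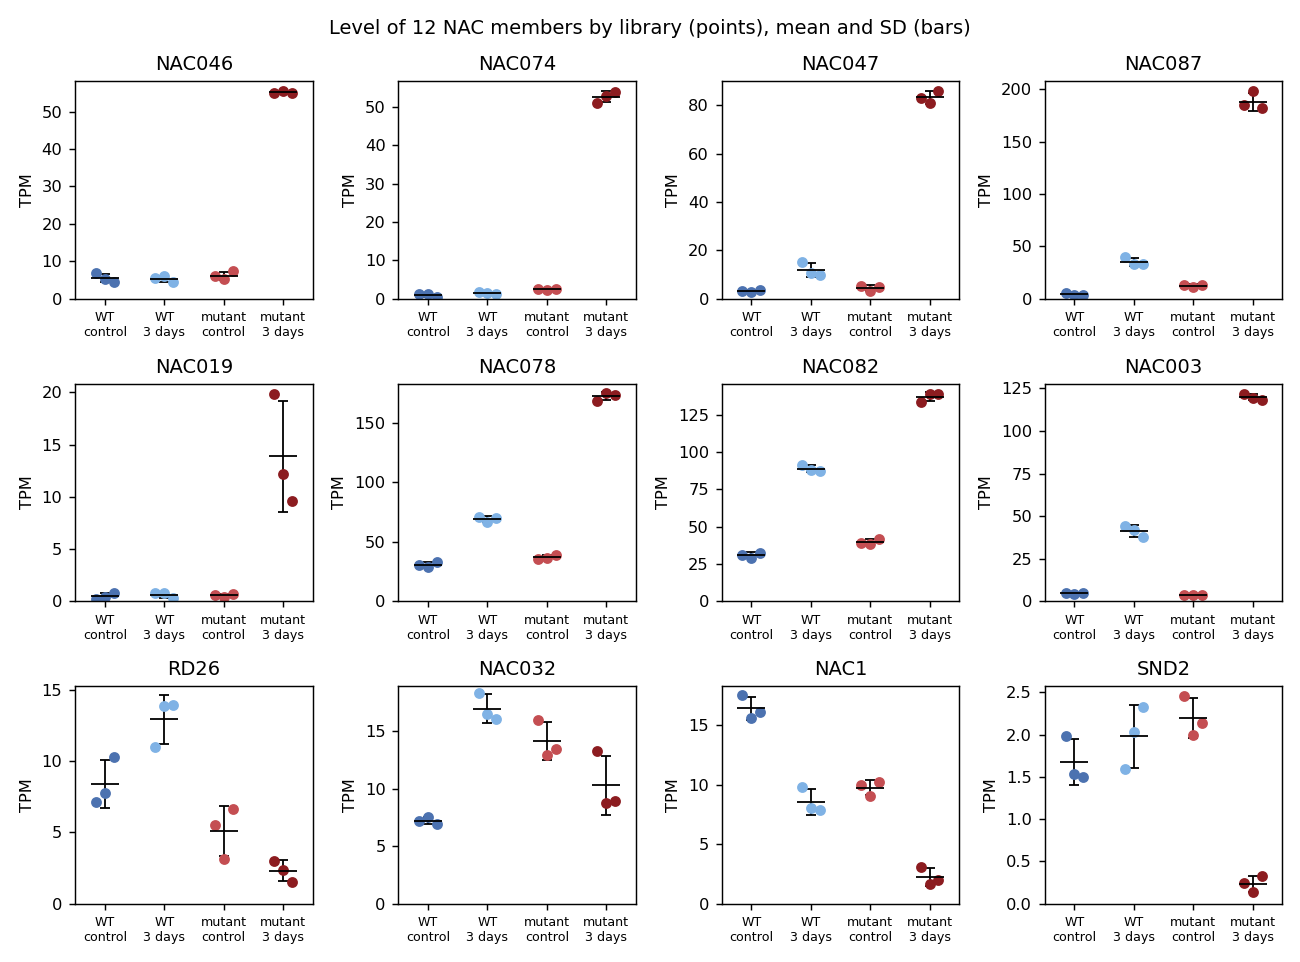
TPM (y axis, starting at 0, own scale in each panel) of 12 members in the 4 groups (x axis). Points are libraries and bars are the mean and SD (n = 3). NAC046 and NAC074 are highest in mutant 3 days, at 55.1 to 55.6 and 51.1 to 53.9 TPM, while RD26 and SND2 are lowest there.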

How the data were processed

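RNA was measured in 12 libraries, grouped by their titles. Per the labels' protocols, poly(A) RNA of seedlings was made into Illumina TruSeq libraries. The submitters' processing notes name RSEM and TAIR10, and the authors deposited TPM per gene. No aligner, version or strand setting is stated in the labels. TPM is a share of a library, so a rise of abundant genes lowers the others. Genes reaching 1 TPM in 3 or more libraries were kept. On log2(TPM + 1), group means were fitted to all libraries together by limma 3.58.1 (R 4.3.3), with the variance prior following mean level. The fit was tested on simulated data. An exact test of 3 against 3 libraries could not pass the threshold, so spread was pooled across genes. Members, role groups, gene lists and tests were chosen with earlier results of these data known. Named members were those of the role groups, the 8 largest called changes in each direction per comparison at a mean of at least 1 TPM, and the 5 most abundant. All 91 members matched a locus in a RefSeq gene table and 78 carried a symbol there. Sequences were not analysed here. Alternatives were pseudocounts of 0.1 and 0.5, no filter or 5 TPM, 2 scalings, a replicate block, fits without a trend or of the compared groups alone, and each library left out.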

Additional observations from a re-analysis of the deposited data

Results flagged for a closer look

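In 4 members, beside 13% of all genes, the change from control to 3 days was called in opposite directions in the genotypes, and limma's test of the difference between the responses passed. For NAC032 the change was 1.12 ± 0.134 (SE) in WT and -0.44 ± 0.134 in the mutant, a difference of -1.56 ± 0.189 (adjusted p = 1.35e-05), but the fall in the mutant lost its call with median-of-ratios scaling (-0.26, adjusted p = 0.065) and quantile normalization (-0.13, adjusted p = 0.285). For VND2 it was 0.63 ± 0.173 and -1.11 ± 0.173, a difference of -1.73 ± 0.245, but the WT rise lost its call with both scalings (0.31 and 0.18, adjusted p of 0.121 and 0.363). For RD26 it was 0.57 ± 0.23 and -0.87 ± 0.23, a difference of -1.44 ± 0.325, although the WT rise lost its call without WT control replicate 1 (adjusted p = 0.118), and with quantile normalization the difference was -0.46 (adjusted p = 0.198). For CUC1 it was 0.36 ± 0.101 and -0.33 ± 0.101, a difference of -0.69 ± 0.143, and the WT rise turned to -0.15 with quantile normalization, where the difference was -0.032 (adjusted p = 0.854). CUC1 passed the filter only with WT 3 days, which favoured a rise in WT, so its values are a description.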

How the results depend on the processing

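The split into higher and lower calls depended on scaling. A filter of 5 TPM tests fewer members and gave 15 lower for mutant against WT at 3 days, 4 for the WT change, 8 for the mutant change and 14 for the difference of the changes. With median-of-ratios scaling these lower counts were 16 at 3 days and 16 for the WT change, and the difference had 28 higher and 13 lower. With quantile normalization they were 8 at 3 days, 20 for the WT change and 7 for the difference. The cause was not tested. Leaving out 1 library gave 15 to 20 higher and 6 to 9 lower at control, 18 to 23 and 23 to 26 at 3 days, 31 to 33 and 10 to 11 for the WT change, 28 to 31 and 21 to 23 for the mutant change, and 15 to 19 and 21 to 25 for the difference. With the replicate number as a block the counts were 19 and 8, 23 and 24, 32 and 10, 30 and 22, and 20 and 25. Libraries of the same number correlated at -0.096 to 0.077 after group means were removed, so no deviation shared by number was seen. Whether the numbers pair the libraries is not stated in the labels, and these values cannot decide it. Of the values of single members under the alternatives, 5524 were called with the same sign in both fits or called in neither. Another 157 lost and 95 gained a call at the same sign, and 37 called in either fit changed sign. Values called in neither fit count among the 5524 even where their sign turned, and they are left out of the lists below. For mutant against WT at 3 days with median-of-ratios scaling, the sign turned for ATAF1 0.27, NAC027 0.25, LOV1 0.30, NAC048 0.18, NAC052 0.036 and NAC053 0.18. For the WT change with median-of-ratios scaling, the sign turned for NAC058 -0.36. For the difference of the changes with median-of-ratios scaling, the sign turned for ATAF1 0.32 and NAC096 0.018. For mutant against WT at 3 days with quantile normalization, the sign turned for ATAF1 0.0048, NAC028 0.44, CUC3 0.0029, LOV1 0.56, NAC045 0.97, NAC053 0.15, NAC057 0.082, NAC080 0.45, NAC096 0.031, CUC2 0.24 and NAC099 0.18. For the WT change with quantile normalization, the sign turned for NAC019 -0.42, CUC1 -0.15, NAC058 -0.37, NAC074 -0.055 and CUC2 -0.48. For the mutant change with quantile normalization, the sign turned for AT3G12977 0.016. For the difference of the changes with quantile normalization, the sign turned for ATAF1 0.059, SND3 0.099, NAC1 0.21, NAC028 0.25, NAC045 0.047, ORS1 0.36, NAC080 0.97, NAC096 0.19, CUC2 0.070, NAC099 0.022 and VND3 0.093. TPM keeps no depth, so what depth limits for low members cannot be stated.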

Other observations

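Of 14 pairs of members that are genomic neighbours, 6 had both members tested, and neighbours often differed in value. At 3 days the mutant minus WT difference was 1.10 for NAC050 and -0.50 for NAC052, 0.69 for NAC055 and -1.81 for NAC056, and 0.87 for NAC018 and 3.15 for NAC019 (log2(TPM + 1) scale). The neighbours NAC003 (1.52) and NAC004 (0.85), and NAC046 (3.16) and NAC047 (2.73), were both higher. NAC052 and NAC053 were both lower (-0.50 and -0.35), and both turned above 0 with median-of-ratios scaling, at 0.036 and 0.18.

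Genes of the mitochondrial retrograde response, which signals organelle stress to the nucleus and is controlled by NAC factors, were followed as a list of 7, all tested with limma. In the controls 7 were higher in the mutant, beside 30.3% of all genes. At 3 days 4 were higher in the mutant, beside 24.1%, and 2 were lower, beside 58.7%, and the change over 3 days was lower in the mutant for 7, beside 56.3%. AOX1A, the alternative oxidase, averaged 25.0 TPM at control and 137 at 3 days in WT, and 122 and 296 in the mutant. SOT12 averaged 19.9 and 24.0 TPM in WT and 64.2 and 7.197 TPM in the mutant, a change of -2.98 ± 0.132 there, and UGT74E2 changed by -2.72 ± 0.295 in the mutant. The list summed in WT to 64.0 to 71.2 TPM at control and 710.2 to 770.1 at 3 days, and in the mutant to 280.4 to 327 and 1135 to 1233 TPM, and these sums are made up mostly of UPOX and AOX1A at 3 days. The list was chosen with earlier results of these data known.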
